A study of Macaca mulatta with 64 samples.

Results

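The dentate gyrus of the rhesus macaque was compared with 3 areas of neocortex, the prefrontal, posterior cingulate and parietal cortex, by sequencing of polyadenylated RNA. The comparison rests on 32 of the 64 libraries of the series: 8 from the dentate gyrus and 24 from the neocortex. Each region gave 1 library at each of 4 ages (1, 4, 10 and 20 years) in each sex, from healthy, socially housed animals, 2 per age and sex, and no label used here says whether a library pools 2 animals. A combination of age and sex is called an animal set below, and the 8 animal sets served as replicates. The prefrontal pieces came from the main sulcus, the posterior cingulate pieces from Brodmann's area 23 and the parietal pieces from the middle of the sylvian fissure, while the dentate gyrus was taken with the hippocampus. A further 8 libraries, from the hippocampal field CA1, are given beside the comparison where they help to place a gene.

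The dentate gyrus is the gate of the hippocampal circuit. Its principal cells, the granule neurons, receive the perforant path from the entorhinal cortex and send mossy fibres to the hilus and to CA3. They are packed in a single dense layer and carry the transcription factor PROX1 and the calcium buffer calbindin, and in mammals new granule neurons are added after birth from a niche at the inner edge of this layer. The neocortex instead has stacked layers of pyramidal neurons, each with its own transcription factors, and a richer set of local inhibitory neurons. Both kinds of tissue also hold astrocytes, oligodendrocytes, microglia, vessels and, at the surface, meninges.

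Levels are the deposited RPKM values (read counts scaled by transcript length and sequencing depth), and differences are dentate gyrus minus the mean of the 3 areas on the log2(RPKM + 1) scale, which makes the differences of low genes smaller than their fold. A gene is called higher or lower when limma's adjusted p is below 0.05 and the difference is at least 1, and errors of differences are standard errors. Of 26654 genes in the table, 11840 reached at least 1 RPKM in at least 8 of the 32 libraries and were tested. PROX1, TRPC6, NTF3, MUM1L1, TSPAN18, NPY2R and HTR7, among others, passed this filter through the 8 dentate gyrus libraries alone. For such genes entry itself set which group was higher and that the groups did not overlap, so neither was tested. Total RPKM per library was 322364 to 489987, and 10645 to 11521 genes reached 1 RPKM. The dentate gyrus libraries of 1 and 4 years had totals of 397200 to 411357, above those of 10 and 20 years at 322364 to 366110. Read totals are unknown. The dentate gyrus library of the 4-year-old female set stood apart: it held the highest dentate gyrus level for 240 of the 329 genes called lower, against 4 to 26 genes in each of the other 7 libraries.

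In the dentate gyrus 176 genes were higher than in the neocortex (1.49% of those tested) and 329 were lower (2.78%). Counts of list members below are to be read beside these shares, and no list was tested as a set. The median difference over all genes was -0.03. Of the 505 called genes, 488 differed in the same direction in all 8 animal sets. All 8 dentate gyrus libraries lay above all 24 neocortical libraries for 363 genes (3.07%) and below all of them for 413 (3.49%). The 363 include genes that passed the filter through the dentate gyrus alone. Without the 4-year-old female dentate gyrus library, and with the same genes tested, 180 genes were higher and 380 lower, and 168 and 328 of the genes first called were among them. Because tissue pieces were sequenced whole, fewer cells of a type and less RNA per cell cannot be told apart in any value below.

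Markers of granule neurons, most of them known from mouse, were set beside the label of the tissue. The list was chosen with earlier results of these data known, so it is no independent check of the label. Of 17 genes on the list 12 were tested, 7 were higher, 1 was lower and 4 were not called, with a list median of 1.25 beside the -0.03 of all genes. PROX1, the transcription factor that specifies granule neurons, stood at 2.09 to 4.68 RPKM (median 2.54) in the 8 dentate gyrus libraries and at 0.36 to 0.81 (median 0.535) in the 24 neocortical ones. No dentate gyrus library overlapped the neocortex, and the difference was 1.32 ± 0.07 (adjusted p = 2.3e-15). PROX1 and TRPC6 passed the filter through the dentate gyrus alone, so their direction and lack of overlap were given by entry and not tested. Both are part of the list count and median. C1QL3, a secreted synapse organizer, differed by 1.81 ± 0.13, the Rac and Cdc42 exchange factor DOCK10 by 2.27 ± 0.10, the cation channel TRPC6 by 1.18 ± 0.05 and the transcription factor NEUROD1 by 1.44 ± 0.09. CALB1, which encodes calbindin, had a median of 71.5 RPKM against 19.4, with ranges that overlapped because young neocortex reached 58.6. C1QL2, a relative of C1QL3, stood at a median of 18.7 RPKM against 9.47 and missed the size limit at 0.84 ± 0.08. The member called lower was DSP, which encodes the desmosomal protein desmoplakin, a granule neuron marker in mouse. It stood at 0.09 to 0.30 RPKM in the dentate gyrus and 0.75 to 11.2 in the neocortex (difference -2.05 ± 0.20).

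The 15 largest increases are given among genes that have a symbol and the same direction in every animal set. They were TTR, NTF3, ZCCHC12, GRP, TANC1, BHLHE22, VWA5A, CABP7, SLN, MUM1L1, DOCK10, TSPAN18, NPY1R, GPD1 and MATN2. For all but SLN the 8 dentate gyrus libraries lay above every neocortical library. NTF3, the gene of the growth factor neurotrophin-3, stood at 7.42 to 15.98 RPKM (median 9.57) in the dentate gyrus and at 0.10 to 0.44 (median 0.23) in the neocortex. The difference was 3.19 ± 0.08 (limma, adjusted p = 2.2e-22). NTF3, MUM1L1 and TSPAN18 passed the filter through the dentate gyrus alone, so their direction and lack of overlap were given by entry. CABP7 also needed the dentate gyrus libraries to pass, at 4.16 to 8.79 RPKM there and 0 to 1.36 (median 0.36) in the neocortex. Its direction was thus largely set by entry as well. ZCCHC12, a transcriptional coactivator, had a median of 62.8 RPKM against 6.10 (difference 3.01 ± 0.11). TANC1, a scaffold of the postsynaptic density, had a median of 15.3 RPKM against 1.60 (difference 2.53 ± 0.07). BHLHE22, a basic helix-loop-helix repressor of neurons, stood at 11.1 to 29.4 RPKM against 1.78 to 5.12. Differences of VWA5A, MUM1L1, TSPAN18, GPD1 (glycerol-3-phosphate dehydrogenase) and MATN2 (a matrix matrilin) lay between 2.06 and 2.48. SLN, whose product sarcolipin inhibits the calcium pump SERCA in muscle, ranged from 3.69 to 19.1 RPKM in the dentate gyrus and from 0.06 to 5.64 in the neocortex, so its groups touched.

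**Figure D1:**
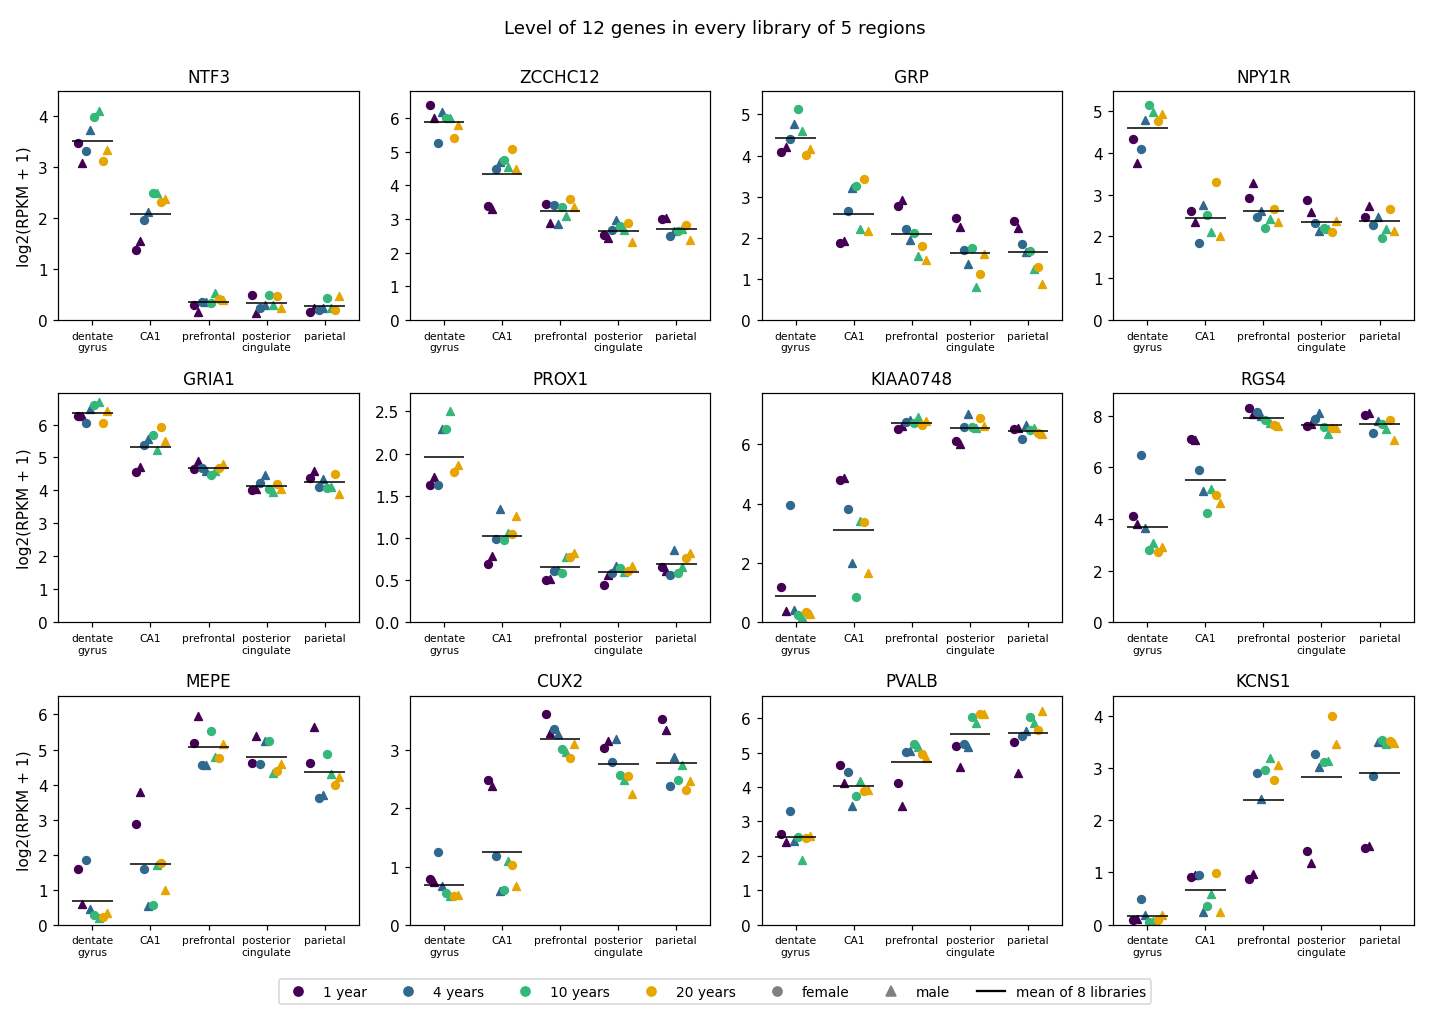
Level of 12 genes in every library, as log2(RPKM + 1), by region; each point is a library, colour is age, circles are female and triangles male, and the black line is the mean of 8 libraries. NTF3, ZCCHC12, GRP, NPY1R, GRIA1 and PROX1 lie above the neocortex in all 8 dentate gyrus libraries. For NTF3 and PROX1 the filter set this in advance. KIAA0748, RGS4, MEPE, CUX2, PVALB and KCNS1 lie below the neocortex, with the 4-year-old female dentate gyrus library nearest to it for KIAA0748 and RGS4.

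The largest increase of a gene with a symbol was that of TTR, a marker of the choroid plexus. It encodes transthyretin, the thyroid hormone carrier that this epithelium secretes into the cerebrospinal fluid. TTR stood at 60.7 to 535 RPKM (median 193) in the dentate gyrus, at 0.43 to 11.5 (median 2.97) in the neocortex and at 85.3 to 1029 in CA1. The summed level of the 11 choroid plexus and ependyma genes found in the table was 64.3 to 543 RPKM in the dentate gyrus and 3.10 to 13.4 in the neocortex, most of it TTR. Of these genes 2 were tested, and the other tested member, CLIC6, a chloride channel protein, was not called. FOLR1, a folate receptor of choroid plexus epithelium, was at 0.31 to 2.70 RPKM in the dentate gyrus and at 0 to 0.31 in the neocortex, in too few libraries above 1 RPKM to be tested. KCNJ13, a potassium channel of that epithelium, and FOXJ1, a factor of ciliated cells, were listed at 0 in all 32 libraries. The part of adhering choroid plexus in the TTR difference was not tested.

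Glutamate and GABA receptors differed in a few subunits. Of 15 ionotropic glutamate receptor genes tested, GRIA1 was higher, GRIA4 was lower and 13 were not called (list median -0.02). GRIA1, the AMPA receptor subunit central to hippocampal plasticity, stood at 64.6 to 101 RPKM (median 80.1) in the dentate gyrus and 14.0 to 28.6 (median 19.5) in the neocortex, a difference of 2.00 ± 0.08 (adjusted p = 1.9e-17). GRIA4, an AMPA receptor subunit frequent in fast inhibitory neurons, stood at 1.71 to 2.93 RPKM against 4.57 to 10.2 (difference -1.31 ± 0.07). Both groups were separate for either subunit. Of 12 GABA-A receptor subunits, 1 was higher and 2 were lower, with a median of 0.24. GABRA5, the subunit of extrasynaptic receptors known for tonic inhibition in hippocampus, had a median of 48.2 RPKM against 13 (difference 1.72 ± 0.12). GABRD, the extrasynaptic delta subunit, had a median of 20.7 RPKM against 46.8 (-1.13 ± 0.09). In rodents the delta subunit is abundant in granule neurons. None of 6 metabotropic glutamate receptor genes was called, and without the 4-year-old female dentate gyrus library 2 were lower.

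Neuropeptides and their receptors changed in both directions. Of 20 neuropeptide genes 4 were higher and 6 lower, with a median of -0.33. GRP, which encodes gastrin-releasing peptide, stood at 15.1 to 34.1 RPKM in the dentate gyrus and 0.74 to 6.53 in the neocortex (difference 2.63 ± 0.14, adjusted p = 3.1e-15). PDYN, the precursor of the dynorphin that mossy fibres release, had a median of 15.7 RPKM against 5.07, with no overlap (1.66 ± 0.15). CARTPT, the CART peptide precursor, rose by 2.04 ± 0.23 with ranges that overlapped, 2.48 to 36.5 RPKM against 0.16 to 7.99, and in 7 of 8 animal sets. CHGB, a granin of secretory granules, had a median of 433 RPKM against 200.0 (1.12 ± 0.10). The 6 lower genes were CRH at -2.07, TAC3 at -1.85, VGF at -1.65, VIP at -1.58, PNOC at -1.25 and CCK at -1.11, and apart from CCK their ranges did not overlap. CRH, the stress hormone releasing factor, for example stood at 2.09 to 5.52 RPKM against 10.9 to 24.9.

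Among 12 neuropeptide receptors NPY1R and NPY2R, both receptors of neuropeptide Y, were higher and CCKBR and MCHR1 were lower. NPY1R stood at 12.6 to 34.4 RPKM (median 26.3) in the dentate gyrus and 2.91 to 8.69 (median 4.26) in the neocortex, a difference of 2.16 ± 0.14. NPY2R, the presynaptic receptor of the same peptide, stood at 1.38 to 2.50 RPKM against 0.03 to 0.41 (1.32 ± 0.06). A further receptor of this peptide, NPY5R, differed by 0.44 ± 0.05 and was not called. The cholecystokinin receptor CCKBR differed by -1.38 ± 0.08, beside the difference of its ligand CCK given above, and the melanin-concentrating hormone receptor MCHR1 by -1.81 ± 0.09. Of 20 monoamine and acetylcholine receptors, the serotonin receptor HTR7 (1.62 ± 0.06) and the adrenergic receptor ADRA1D (1.05 ± 0.15) were higher, and HTR2A (-1.07 ± 0.10) and ADRA1B (-1.30 ± 0.08) were lower. HTR7 was at 2.29 to 4.09 RPKM in the dentate gyrus and at most 0.66 in the neocortex. Like NPY2R, it passed the filter through the dentate gyrus alone, so the direction and lack of overlap of both genes were given by entry. BDNF, the plasticity-linked growth factor that mossy fibres carry, was higher beside NTF3 among 6 neurotrophin and receptor genes: 8.18 to 13.8 RPKM against 2.08 to 8.67, with a difference of 1.45 ± 0.11. The other 4 tested, all receptor genes, were not called: NTRK2, NTRK3 and SORT1 had differences of 0.18 to 0.27 and GFRA2 one of -0.97. Without the 4-year-old female dentate gyrus library 1 gene of this list was lower.

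Transcription factors of the forebrain split between the tissues. Of 21 tested, BHLHE22, NEUROD6 (1.45 ± 0.10), ZBTB20 (1.33 ± 0.06), PROX1 and NEUROD2 (1.04 ± 0.07) were higher and MEIS2 (-2.07 ± 0.13) and EMX1 (-1.17 ± 0.08) were lower. ZBTB20, which sets hippocampal identity in mouse, stood at 9.95 to 17.5 RPKM in the dentate gyrus and 3.65 to 5.50 in the neocortex. MEIS2, a homeobox gene of the developing forebrain, was at 0.55 to 2.91 RPKM in 7 dentate gyrus libraries, at 6.16 in the 4-year-old female one and at 8.55 to 14.2 in the neocortex. Of 9 genes of upper-layer neocortical neurons 3 were lower, among them CUX2 (-2.23 ± 0.09) and RORB (-1.47 ± 0.09). Both are transcription factors of upper-layer and layer 4 neurons, and CUX2 stood at 0.40 to 1.37 RPKM against 3.78 to 11.4. LAMP5, a membrane protein of dendrites and of some interneurons, and CARTPT, from the same list, were higher, LAMP5 at 22.8 to 45.8 RPKM against 6.06 to 15.7. Of 10 deep-layer genes NTNG2, which encodes the axon molecule netrin-G2, was higher (1.39 ± 0.07) and 9 were not called. Genes of CA field pyramidal neurons gave 1 higher (CHGB) and 3 lower of 7, with MPPED1 at -1.96 ± 0.12, WFS1 at -1.29 ± 0.12 and NOV at -1.24 ± 0.23.

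**Figure D2:**
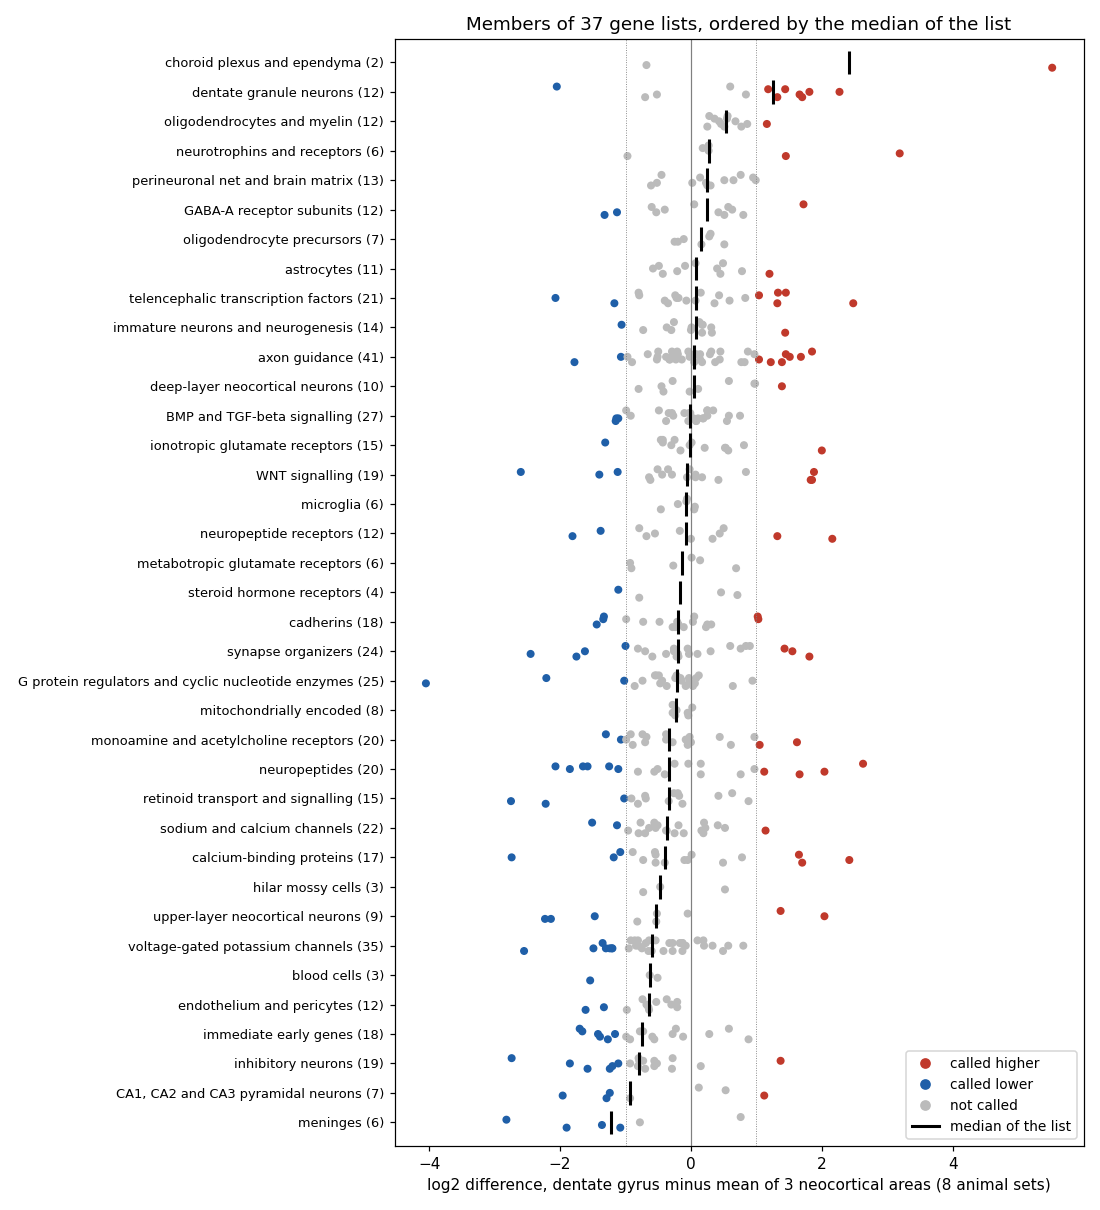
Log2 difference between the dentate gyrus and the mean of the 3 neocortical areas for every tested member of 37 gene lists, with the number tested in brackets; red points were called higher, blue points lower, grey points were not called, and black bars are list medians. Granule neuron genes lie to the right with a median of 1.25, while inhibitory neuron genes (-0.79), immediate early genes (-0.75) and meningeal genes (-1.22) lie to the left.

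The 15 largest decreases by the same rule were KIAA0748, MEPE, RGS4, RIMS3, MYOC, CRABP2, PVALB, SFRP2, KCNS1, HSPB6, CBLN2, NEK2, NGEF, CPNE9 and CUX2. For all but CRABP2 the dentate gyrus libraries lay below every neocortical library. KIAA0748, a gene also known as TESPA1 and studied in T cells, was at 0.12 to 1.26 RPKM in 7 dentate gyrus libraries, at 14.3 in the 4-year-old female library and at 63.3 to 129 (median 94.6) in the neocortex. The difference was -5.70 ± 0.25 (adjusted p = 4.5e-17). MEPE, a matrix phosphoglycoprotein known from bone, stood at 0.13 to 2.60 RPKM against 11.2 to 61.2 (-4.06 ± 0.18). RGS4, a brake on G protein signalling that is abundant in cortical pyramidal neurons, stood at 5.65 to 16.4 RPKM in 7 libraries, at 88.1 in the 4-year-old female one and at 131 to 317 in the neocortex (-4.05 ± 0.22). RIMS3, a protein of the presynaptic active zone, had a median of 2.03 RPKM against 26, and NGEF, an exchange factor downstream of ephrin receptors, differed by -2.40 ± 0.11. CPNE9, a calcium-dependent membrane-binding copine, differed by -2.35 ± 0.09, HSPB6, a small heat shock protein, by -2.48 ± 0.10 and NEK2, a centrosomal kinase of dividing cells, by -2.40 ± 0.11. Of 25 G protein regulators and cyclic nucleotide enzymes RGS4, RGS6 (-2.21 ± 0.10) and the adenylyl cyclase ADCY2 (-1.02 ± 0.06) were lower and 22 were not called.

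**Figure D3:**
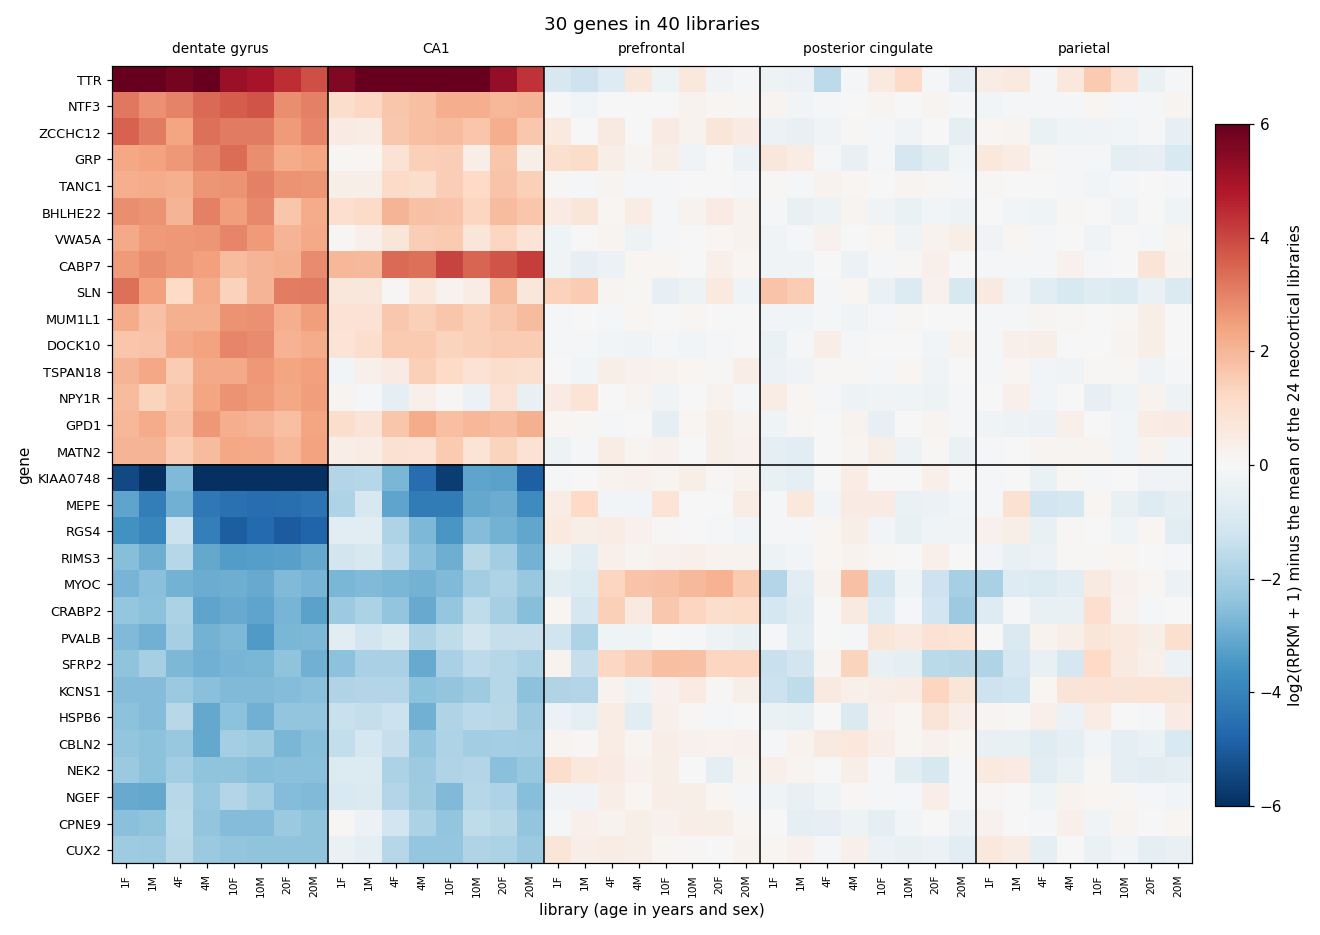
The 15 named genes with the largest increases (top) and the 15 with the largest decreases (bottom) in 40 libraries. Values are log2(RPKM + 1) minus the mean of the 24 neocortical libraries. Red is above and blue below that mean, and columns are ordered by region, age and sex. In the dentate gyrus the 4-year-old female column is paler than its neighbours for KIAA0748 and RGS4, and MYOC, CRABP2 and SFRP2 vary together among the neocortical columns.

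MYOC, CRABP2 and SFRP2, which are expressed in meninges among other tissues, varied widely within the neocortex. MYOC, the gene of myocilin, ran from 1.27 to 37.3 RPKM there and stayed at 0.57 or below in the dentate gyrus. SFRP2, a secreted WNT antagonist, ran from 2.00 to 35.8 RPKM and CRABP2, a retinoic acid carrier, from 2.74 to 51.1. Of 6 meningeal genes tested 4 were lower in the dentate gyrus (MYOC, PTGDS, DCN and COL1A1), and the summed level of the list was 102 to 161 RPKM there and 207 to 980 in the neocortex. The differences of these genes were larger against the prefrontal cortex (-3.93 for MYOC, -3.56 for SFRP2 and -3.52 for CRABP2) than against the posterior cingulate cortex (-2.17, -1.96 and -2.06), a contrast between areas that was not tested. The part of adhering meninges in these values was not tested.

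Of 19 markers of inhibitory neurons 6 were lower, LAMP5 was higher and 12 were not called, with a list median of -0.79. PVALB, which encodes the calcium buffer parvalbumin of fast-spiking interneurons, was at 2.64 to 8.82 RPKM (median 4.84) in the dentate gyrus and at 9.87 to 73.4 (median 36.7) in the neocortex, a difference of -2.74 ± 0.15 (adjusted p = 4.0e-15). SLC32A1, the vesicular GABA transporter that inhibitory neurons share, was at 4.14 to 6.21 RPKM against 8.60 to 17.3 (-1.20 ± 0.08). The homeobox gene DLX1, which marks interneurons from the ganglionic eminences, differed by -1.24 ± 0.07. The peptide genes VIP, TAC3 and CCK on the same list were given above. Apart from CCK, the ranges of the lower genes did not overlap.

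Of 35 voltage-gated potassium channel genes 7 were lower and 28 were not called, with a list median of -0.60. KCNS1, a silent subunit that modifies delayed rectifiers, stood at 0.03 to 0.41 RPKM against 0.84 to 14.9 (-2.55 ± 0.18). The other 6 were KCNG1 at -1.49, KCNV1 at -1.35, KCNS2 at -1.30, KCNA2 at -1.24, KCNIP3 at -1.21 and KCNAB3 at -1.20. Of these KCNS1, KCNG1, KCNV1 and KCNS2 are electrically silent subunits, KCNA2 forms axonal channels, and KCNIP3 and KCNAB3 are accessory proteins. Of 22 sodium and calcium channel genes the auxiliary subunit SCN3B was higher (1.14 ± 0.13) and 2 were lower, among them the T-type channel CACNA1G (-1.13 ± 0.06). The calcium sensors HPCA (hippocalcin) and CABP7 were higher, HPCA at a median of 373 RPKM against 132, while NRGN, the calmodulin-binding neurogranin of dendrites, stood at 619 against 1330 (-1.18 ± 0.10). Of 17 calcium-binding genes HPCA, CABP7 and CALB1 were the 3 higher ones and PVALB, NRGN and S100A10 (-1.08 ± 0.15) the 3 lower ones. CABP7 passed the filter only with the dentate gyrus libraries, as given above.

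Immediate early genes, which neurons transcribe within minutes of activity, were lower or not called. Of 18 tested, EGR1 (-1.70 ± 0.16), NR4A1 (-1.66 ± 0.15), DUSP6 (-1.42 ± 0.11), DUSP1 (-1.39 ± 0.11), EGR2 (-1.27 ± 0.11) and ARC (-1.16 ± 0.16) were lower and 12 were not called, with a median of -0.75. EGR1 stood at 3.67 to 6.21 RPKM in 7 dentate gyrus libraries, at 16.8 in the 4-year-old female one and at 11.97 to 44.5 in the neocortex, so the groups overlapped only through that library. Leaving it out gave 7 lower genes.

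Synapse organizers, guidance molecules and WNT genes moved both ways. Of 24 synapse organizers, C1QL3, NPTX1 (1.55 ± 0.08) and NPTX2 (1.43 ± 0.15) were higher and CBLN2 (-2.45 ± 0.09), LGI3 (-1.75 ± 0.10), CBLN4 (-1.62 ± 0.09) and LGI2 (-1.0 ± 0.09) were lower. NPTX1 and NPTX2 are pentraxins that gather AMPA receptors, and NPTX1 stood at 57.9 to 105 RPKM against 19.9 to 37.7. CBLN2 is a cerebellin that bridges neurexins and postsynaptic receptors, and stood at 1.34 to 3.78 RPKM against 9.31 to 29.7. Of 41 axon guidance genes 7 were higher and 2 lower, beside 1.49% and 2.78% of all genes tested. The semaphorin coreceptors NRP1 (1.85 ± 0.06) and NRP2 (1.22 ± 0.07), the ephrin receptors EPHA7 (1.68 ± 0.08) and EPHA6 (1.04 ± 0.10), the ligands SEMA3E (1.51 ± 0.12) and EFNB3 (1.45 ± 0.07) and NTNG2 were the 7 higher ones, and EPHB6 (-1.78 ± 0.11) and PLXND1 (-1.07 ± 0.08) the lower ones. SEMA3E is the ligand of PLXND1, and the ligand was at 2.10 to 5.52 RPKM in the dentate gyrus against 0.16 to 1.25 while the receptor was at 1.09 to 2.89 against 2.56 to 6.81.

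Of 19 WNT pathway genes 3 were higher: RSPO3 (1.88 ± 0.19), an enhancer of WNT reception, the receptor FZD7 (1.85 ± 0.08) and the ligand WNT4 (1.83 ± 0.07). WNT10B (-1.12 ± 0.10), RSPO2 (-1.40 ± 0.09) and SFRP2 were lower. WNT4 stood at 3.49 to 5.92 RPKM against 0.22 to 1.11, and RSPO3 ran from 6.28 to 42.9 RPKM in the dentate gyrus and overlapped the neocortical range of 2.04 to 6.87. BMP and TGF-beta genes gave 3 lower of 27 (BMP4 and ID2 among them) and retinoid genes 3 lower of 15 (CRABP2, CRABP1 and the receptor RARB). Over all genes tested 2.78% were lower. Of 18 cadherins CDH8 and CDH9 were higher and CDH13, CDH18 and CDH22 lower by more than the size limit. Without the 4-year-old female dentate gyrus library 1 cadherin was higher and 4 were lower. Among 4 nuclear hormone receptor genes the thyroid hormone receptor THRB was lower (-1.11 ± 0.08).

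Astrocyte, oligodendrocyte, precursor and microglial lists each held 1 call or 0, beside 1.49% higher and 2.78% lower over all genes tested. No list was tested as a set. Of 11 astrocyte genes GFAP, the intermediate filament of astrocytes, was higher (1.20 ± 0.20, 596 to 1215 RPKM against 116 to 724), with a list median of 0.07. Of 12 oligodendrocyte and myelin genes ERMN, a cytoskeletal protein of myelinating cells, was higher (1.16 ± 0.16), with a list median of 0.53 and summed levels of 528 to 1580 RPKM in the dentate gyrus, 119 to 1470 in the neocortex and 2860 to 5460 in CA1. None of 7 oligodendrocyte precursor, 6 microglial, 13 matrix, 3 hilar mossy cell and 8 mitochondrially encoded genes was called, and without the 4-year-old female dentate gyrus library 1 matrix gene was higher. Of 12 vessel genes the smooth muscle genes ACTA2 (-1.61 ± 0.16) and TAGLN (-1.33 ± 0.12) were lower, and of 3 blood genes HBB was (-1.54 ± 0.16).

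Against each area alone the counts differed. The dentate gyrus had 154 higher and 461 lower genes against the prefrontal cortex, 222 and 290 against the posterior cingulate cortex and 201 and 317 against the parietal cortex. Under median-ratio scaling the counts were closer to each other, at 194 and 363, 204 and 327, and 214 and 300. These contrasts share the dentate gyrus libraries. The median difference over all genes was -0.10, 0.04 and -0.03. NTF3 differed by 3.15, 3.18 and 3.24, PROX1 by 1.31, 1.37 and 1.27 and NRP1 by 1.85, 1.76 and 1.95, much the same against every area. Others depended on the area: C1QL3 differed by 1.21, 2.27 and 1.95, NPTX2 by 0.85, 1.91 and 1.53, and PVALB by -2.19, -3.00 and -3.04. These spreads between areas were not tested here.

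The comparison with CA1 asked which of these genes set the dentate gyrus apart within the hippocampal formation. Of 12039 genes tested over 40 libraries, 74 were higher in the dentate gyrus than in CA1 (0.615%) and 175 were lower (1.45%), with a median difference of 0.01. All 12 oligodendrocyte and myelin genes tested and 2 of 7 precursor genes were among those lower than in CA1, with the summed levels given above, and MBP, the myelin basic protein gene, stood at 427 to 1300.13 RPKM in the dentate gyrus and 2372 to 4636 in CA1. The part of this myelin difference in the other values of the contrast was not tested. Of the 15 largest increases over the neocortex 9 were also called higher against CA1, among them NPY1R (2.16), GRP (1.83), VWA5A (1.61), ZCCHC12 (1.54), TSPAN18 (1.46), TANC1 (1.44) and NTF3 (1.42). NPY1R was at 2.59 to 8.86 RPKM in CA1, a range close to that of the neocortex, while NTF3 was at 1.60 to 4.64, between the other 2 tissues. CABP7 was at 4.30 to 23.2 RPKM in CA1 (difference -0.84, adjusted p = 7.3e-04), a range that overlapped that of the dentate gyrus. GPD1 (0.44) and BHLHE22 (0.91) stayed below the size limit. Of the 15 largest decreases KIAA0748 (-2.22), RGS4 (-1.82), PVALB (-1.51) and MEPE (-1.04) were called lower than CA1. For RGS4, KIAA0748 and CUX2 the CA1 libraries of 1 year stood nearest to the neocortex, KIAA0748 reaching 28.1 RPKM. Of the 12 granule neuron genes C1QL3 (1.86), PDYN (1.27), CALB1 (1.15) and STXBP6 (1.15) were higher than in CA1. Lists with several genes lower than in the neocortex held few genes lower than in CA1. These were 0 of 35 potassium channel, 1 of 19 inhibitory neuron and 1 of 18 immediate early genes, beside 1.45% of all genes. In the same lists 1 inhibitory neuron gene was higher than in CA1.

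The series also asked how expression shifts with age. For each gene the 8 differences between the dentate gyrus and the neocortex of an animal set were fitted to log2 age and sex, so a slope is a change in log2 level per doubling of age. By limma's adjusted p the difference fell with age for 2794 genes (23.6%) and rose for 407 (3.44%), with a median slope of -0.059. Under median-ratio scaling, which shifts this median to -0.002, 1143 fell and 1084 rose, so the excess of falling genes was lost. The counts rest on single sets: 38 and 14 genes were left without the 1-year-old male set, 1448 and 224 without the 1-year-old female set and 1071 and 345 without the 20-year-old female set. Within the dentate gyrus 323 genes fell (2.73%) and 89 rose (0.752%), and 433 fell and 324 rose under median-ratio scaling. Leaving out any of the 8 sets moved these counts by more than 1.5 times, to between 1 and 1252 falling and 0 and 295 rising genes. In the neocortical means 655 genes fell (5.53%) and 2327 rose (19.7%), and under median-ratio scaling 1354 fell and 1261 rose. The values of named genes below are therefore given library by library.

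TTR gave the steepest of the 10 slopes named for the dentate gyrus. In order of age, female before male, it stood at 490 and 535 RPKM at 1 year, 229 and 309 at 4 years, 156 and 132 at 10 years and 92.7 and 60.7 at 20 years. Every older pair lay below every younger pair, and the slope was -0.63 ± 0.05 (adjusted p = 0.0054). This slope passed the threshold in all 12 alternatives, with adjusted p from 0.0025 to 0.034. FOLR1, which was not tested, stood at 2.70 and 2.04 RPKM at 1 year and at 0.54 and 0.31 at 20 years.

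Other genes with the smallest p for the dentate gyrus slope were SOX11, DPYSL3 and TEKT1, which encodes a tektin of cilia and fell from 4.71 and 4.59 RPKM at 1 year to 1.54 and 1.18 at 20 years (-0.30 ± 0.03, adjusted p = 0.0055). SPON2, a secreted matrix protein gene, rose from 1.34 and 0.85 RPKM to 4.89 and 5.94 (0.37 ± 0.05, adjusted p = 0.018). Their adjusted p ran up to 0.076 and 0.16 over 12 alternatives.

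Of 14 genes of immature neurons and neurogenesis tested, NEUROD1 was higher and STMN1 lower in the dentate gyrus over all ages (list median 0.07). With age 5 fell in the dentate gyrus, 2 fell and 3 rose in the neocortex, and the difference between the tissues fell for 8. Over all genes tested the shares were 2.73%, 5.53%, 19.7% and 23.6%, in this order. The list counts were not made with a set left out or under median-ratio scaling, where the excess of falling differences over all genes was lost. SOX11, a transcription factor of newborn neurons, stood at 3.26 and 3.21 RPKM at 1 year, 1.39 and 1.07 at 4 years, 0.56 and 0.51 at 10 years and 0.54 and 0.42 at 20 years in the dentate gyrus. The levels at 1 year lay above all later ones, and the slope was -0.37 ± 0.04 (adjusted p = 0.0055). In the neocortex it fell as well, from means of 2.56 and 2.42 RPKM to 0.87 and 0.69. The difference of slopes was -0.14 ± 0.04 (limma, adjusted p = 0.016) and missed the threshold in 3 of 12 alternatives. DPYSL3, a cytoskeletal protein of growing axons, fell from 17.3 and 16.7 RPKM at 1 year to 6.76 and 6.43 at 20 years (-0.30 ± 0.03, adjusted p = 0.0055), and its slope difference missed the threshold (adjusted p = 0.057). Over 12 alternatives the adjusted p of the dentate gyrus slope ran from 0.0058 to 0.10 for SOX11 and from 0.0080 to 0.12 for DPYSL3. NES, the filament nestin of neural stem cells and vessels, stood at 8.97 and 11.3 RPKM at 1 year and 4.33 and 4.14 at 20 years, with a slope of -0.27 in the dentate gyrus (adjusted p = 0.043) and 0.00 in the neocortex. The dentate gyrus slope of NES missed the threshold in 8 of 12 alternatives. CALB2, the calretinin gene, was at 43.9 and 43.7 RPKM at 1 year and at 11.3 to 22.9 from 4 years on, a slope of -0.31 that missed the threshold (adjusted p = 0.053). DCX, the doublecortin gene of migrating neurons, was at 0.11 to 0.35 RPKM in the dentate gyrus and 0.20 to 0.44 in the neocortex, and EOMES and TOP2A, genes of intermediate progenitors and of dividing cells, were at 0.51 or below in every dentate gyrus library. None of these 3 reached the filter, and SOX4 was listed at 0 in all 32 libraries.

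**Figure D4:**
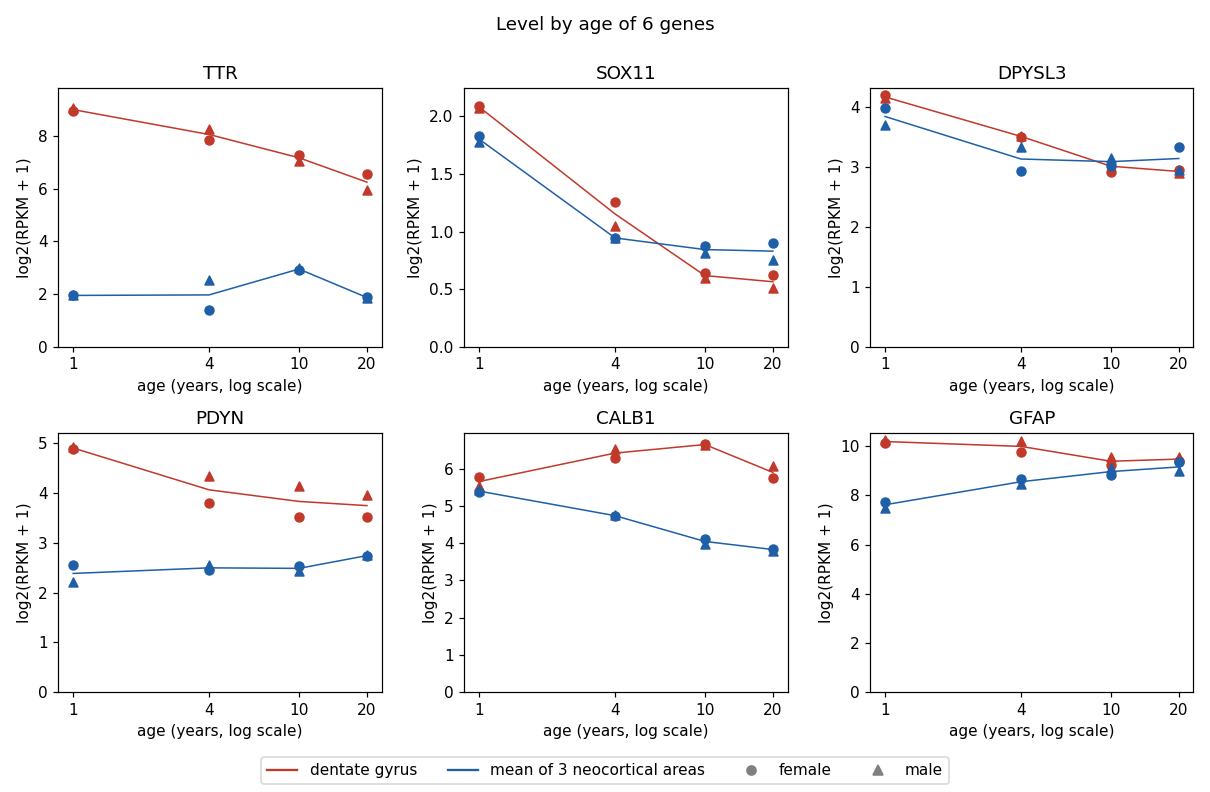
Level by age of 6 genes, as log2(RPKM + 1) against age on a log scale, in the dentate gyrus (red) and in the mean of the 3 neocortical areas (blue); circles are female, triangles male, and lines join the means of the 2 sexes. TTR, SOX11, DPYSL3 and PDYN are highest at 1 year in the dentate gyrus, CALB1 declines with age in the neocortex while its dentate gyrus level shows no such slope, and GFAP converges between the tissues.

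Several genes moved with age in the neocortex while the dentate gyrus showed no slope past the threshold. CALB1 had a slope of 0.10 in the dentate gyrus (adjusted p = 0.43) and -0.38 in the neocortex (adjusted p = 2.3e-05), and the difference of slopes was 0.48 (adjusted p = 0.0044). STAC2, an adaptor of calcium channels, stood at 4.13 and 4.45 RPKM in the dentate gyrus at 1 year and at 2.54 and 2.31 at 20 years. In the neocortex its means rose from 4.72 and 3.82 to 18.02 and 16.8, a slope difference of -0.58 ± 0.04 (adjusted p = 3.8e-05), the smallest p of the 10 named genes. EFHD2 and DACT2 had slope differences of -0.48 and -0.38 with dentate gyrus slopes of -0.10 and -0.01. ARHGAP10 went the other way: it was at 1.54 to 2.45 RPKM in the dentate gyrus at all ages and fell from 14.1 and 12.8 to 3.47 and 3.63 in the neocortex (slope difference 0.38 ± 0.04). COL5A2, a fibrillar collagen, had a slope difference of 0.34. All of these slope differences missed the threshold in 1 of 12 alternatives (limma, adjusted p = 0.069), except that of CALB1, which missed it in 2.

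Dynorphin and glial genes changed their contrast with age. PDYN stood at 28.4 and 29.4 RPKM at 1 year, 12.8 and 19.2 at 4 years, 10.4 and 16.7 at 10 years and 10.5 and 14.6 at 20 years in the dentate gyrus, while neocortical means stayed at 3.61 to 5.72. The slope difference was -0.35 ± 0.04 (adjusted p = 5.8e-04). GFAP was at 1113 and 1215 RPKM at 1 year and 673 and 747 at 20 years in the dentate gyrus, while neocortical means rose from 212 and 180 to 646 and 500.1 (slope difference -0.56 ± 0.05, adjusted p = 3.2e-04). The dentate gyrus slopes taken alone were -0.27 for PDYN and -0.19 for GFAP, and they missed the threshold in 7 and 8 of 12 alternatives. Both slope differences missed it in 1 of 12 (limma, adjusted p = 0.069). Of 11 astrocyte genes 4 fell in the dentate gyrus, 4 rose in the neocortex, and the difference fell for 8. Of 12 oligodendrocyte genes 11 rose with age in the neocortex, none was called in the dentate gyrus (median slope 0.04), and the difference fell for 7. Over all genes tested 2.73% fell and 0.752% rose in the dentate gyrus, 19.7% rose in the neocortex, and the difference fell for 23.6%. These list counts were not made under median-ratio scaling, where the excess of falling differences was lost. Total RPKM of the dentate gyrus libraries was lower at 10 and 20 years, and its part in these slopes was not tested beyond the median-ratio scaling given above.

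No gene passed the adjusted threshold for a sex difference of the contrast: limma gave 0 genes, with 139 at an unadjusted p under 0.05. PDYN was lower in the female than in the male dentate gyrus library at each of the 4 ages, and in the contrast with the neocortex the female minus male difference was -0.53 (unadjusted p = 7.0e-04, adjusted p = 1).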

How the data were processed

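Libraries were directional and made from polyadenylated RNA, per the labels' protocols. The authors deposited 1 table of RPKM values per gene and library, rounded to 0.01; TopHat2, Cufflinks 2.2 and edgeR are named, without a role, per the submitters' processing notes, with no genome build or annotation among them. Counts and read totals were not used, so depth is unknown; among 640 U6 copies the most common value above 0, a guide to what 1 read is worth, was 0.08 to 0.09 RPKM in the dentate gyrus and 0.08 to 0.19 in the neocortex.

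Genes with at least 1 RPKM in at least 8 of the 32 libraries were tested on log2(RPKM + 1) with limma 3.58.1 in R 4.3.3 (trended variance, region plus animal set as a block), with Benjamini-Hochberg adjustment over all genes tested. Age slopes and sex terms were fitted on the 8 paired differences; these calls use adjusted p below 0.05 with no size limit. Same-set libraries of different regions deviated together in 41 of 48 pairs at a correlation over 0.1 (mean 0.36, other sets -0.049); the block marks shared age and sex. P-values and errors of the region fits measure the scatter left after region and animal set, where the regions of a set count as separate observations. Those of the age and sex fits measure the spread between the 8 animal sets. The libraries may be technical pools. Named genes were the 15 largest called differences in each direction with the same sign in all 8 sets. The 10 of smallest p in each age and sex fit and members of 37 gene lists were added. Genes left without a symbol, or with a calendar date for one, could not enter these rankings. Members and lists were chosen with earlier results of these data known. Of 743 list entries 693 matched a gene; 688 genes lacking a symbol were named from a RefSeq table. Alternatives were other pseudocounts, filters and scalings, no block, and leaving out each animal set. Scripts were tested on simulated data. Sequences are not shown, and a few list members are not reported here. Figures used Python 3.11.15 and matplotlib 3.10.9.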

Additional observations from a re-analysis of the deposited data

Results flagged for a closer look

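The highest of 8 dentate gyrus libraries lay far from the other 7 for 5 of the 30 genes with the largest differences, each time in the 4-year-old female set: KIAA0748 at 14.3 RPKM, RGS4 at 88.1, KCNS1 at 0.41, CPNE9 at 1.78 and CUX2 at 1.37. Chance places about 1 in 20 independent groups past this limit. The 30 genes share the same 8 libraries and are not independent, so their count cannot be set against that rate. All 5 values lie on the side of the neocortex.

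The age slope differed between dentate gyrus and neocortex, by a test of the difference itself, for the 10 named genes of smallest p. All but C13H2ORF40 missed the threshold in 1 of 12 alternatives (limma, adjusted p = 0.069). The difference of slopes per doubling of age was -0.72 for TTR, -0.58 for STAC2, -0.56 for GFAP, -0.53 for SAMD14, -0.48 for EFHD2, -0.40 for C13H2ORF40, -0.38 for DACT2, -0.35 for PDYN, 0.38 for ARHGAP10 and 0.34 for COL5A2.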

How the results depend on the processing

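With no replicate block the dentate gyrus had 176 higher and 329 lower genes, as with it, and the counts against each area and CA1 did not move. The pairing check found 41 of 48 same-set pairs over 0.1. A pseudocount of 0.1 gave 325 higher and 614 lower genes, 294 and 793 against the prefrontal, 431 and 549 against the posterior cingulate and 334 and 596 against the parietal cortex, and 171 and 360 against CA1. A mean of at least 5 RPKM left 82 and 218, and adjusted p alone 3411 and 4127. Leaving out 1 animal set gave 138 to 164 higher and 297 to 380 lower genes. The filter of 8 libraries was kept, so genes that passed through the dentate gyrus alone went untested. Without the 4-year-old female dentate gyrus library 24 of the higher genes were not tested and 155 were higher, against 180 with the same genes tested. Age slopes were less stable: with age in years the difference rose for 1 gene and fell for 1, and the dentate gyrus level for 0 and 3 (limma). For the difference, median-ratio scaling gave 1084 rising and 1143 falling genes and quantile normalization 1049 and 1144, and leaving out a set 14 to 553 and 38 to 3459. For the dentate gyrus these were 324 and 433, 342 and 400, and 0 to 295 and 1 to 1252. The cause was not tested. Of 130 genes compared with the neocortex 100 kept their call in every alternative run, and none reversed. Alternatives in which a gene failed the filter did not count. Of 15 age slopes followed for the difference 2 never lost a call, C13H2ORF40 and DPYSL3, but DPYSL3 was not called at first. Of 15 in the dentate gyrus 3 lost none, TTR, CALB1 and CALB2, but only TTR was called at first. No slope reversed. Leaving out the 4-year-old female dentate gyrus library and quantile scaling of slopes were chosen after seeing the data. Values near 0.01 RPKM are limited by rounding.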
